A study of Sus scrofa with 16 samples.

Results

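Transcripts of the neurotrophins and of the receptors that bind or sort them were followed in the hippocampus of 16 preterm pigs, as the FPKM values (fragments counted on a transcript, scaled to its length and to the mapped fragments of the library) that were deposited for each pig. The set held 8 genes chosen by name, namely BDNF, NTF3, NTRK2, NTRK3, NGFR, SORT1, SORCS1 and GFRA1, out of 22815 distinct entries in the table. A gene was taken up when the pig Ensembl gene ID of an entry mapped to its symbol. This found 6 of the 8, each as 1 entry. The IDs of NTF3, which encodes neurotrophin-3, and of GFRA1, a co-receptor for the ligand GDNF, were not among the rows used here, so their levels were not analysed. All 6 genes found had a mean above the minimum of 0.5 FPKM and were tested among 13590 entries.

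The pigs were delivered by caesarean section before term and reared on parenteral nutrition with enteral donor milk, and necrotizing enterocolitis (NEC, an inflammatory and necrotic disease of the immature gut) arose spontaneously in some of them. The 5 No NEC pigs (2 female, 3 male) had no macroscopic gut lesions, the 5 Co-NEC pigs (2 female, 3 male) had severe lesions in the colon only, and the 6 Si-NEC pigs (3 female, 3 male) had severe lesions in the small intestine, whether or not the colon was affected too. No genetic change or drug distinguished the groups, pigs with borderline lesions were left out by the study, and each value came from 1 pig. The study used different types of human donor milk, and the labels do not say which pig received which. Pigs that developed NEC were not assigned to it, so the groups are cross-sectional and cannot separate the disease from what came before it.

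Neurotrophins are secreted as precursors and cleaved to mature growth factors that support survival, dendrite growth and synaptic plasticity of neurons. Mature brain-derived neurotrophic factor (BDNF) acts mainly through the receptor tyrosine kinase TrkB, encoded by NTRK2, and neurotrophin-3 through TrkC, encoded by NTRK3. The uncleaved precursors bind the p75 neurotrophin receptor, encoded by NGFR, together with sortilin, encoded by SORT1, a complex known to signal towards cell death, whereas SORCS1 is a sortilin relative that sorts cargo between compartments of the neuron. In the hippocampus BDNF is made mainly by excitatory neurons, and NTRK2 is transcribed both as the full-length kinase, mostly in neurons, and as truncated forms abundant in astrocytes.

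Among the study's qPCR primers were pairs for BDNF, the ligand at the centre of the set, and for p75, its counterpart for the precursor. The primer letters are those of the study's own list, in lower case and 5′ to 3′, and the first pair spans 248 bp and the second 107 bp.
BDNF forward: aaaccgggcaccaaagattc
BDNF reverse: ctcggacgttggcttctttc
NGFR (p75) forward: ctgcaagcagaacaagcaag
NGFR (p75) reverse: tctggctgtccacagagatg
The study reports p75 among the genes raised in Si-NEC pigs by qPCR, in a larger set of pigs. The qPCR readings themselves were not analysed here. Every value that follows is FPKM from sequencing, a scale per transcript length on which levels of different genes can be set side by side.

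The deposited FPKM summed to between 544629 and 864931 per pig, and read depth is unknown. The sums were highest in No NEC pig 230-15 (864931) and Si-NEC pig 223-15 (823320), which also correlated least with the other pigs across genes (median r of 0.902 and 0.933, against 0.949 to 0.960 in the rest). Pig 230-15 had the lowest value of 4 of the 6 genes (NTRK2, NGFR, SORT1 and SORCS1) and the highest of BDNF, so differences from No NEC are also given without it. In pig 230-15 the summed level of the 3 of 6 neuron markers measured was also the highest of all pigs, 1883 FPKM against a median of 1292, that of the 3 of 6 endothelial markers the lowest, 9.82 against 19.0, and that of the 5 of 6 meningeal fibroblast markers the lowest, 27.9 against 49.4. The part of these shifts in the results was not tested. As a check of the tissue, 3 of 9 hippocampal and forebrain neuron markers could be read, at a summed 503 to 692 FPKM, and 4 of 4 thalamus markers summed to 10.6 to 15.5 FPKM.

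The receptor NTRK2 was the most abundant of the 6 transcripts and the p75 transcript the least. NTRK2 averaged 127 FPKM over all 16 pigs and was above the next, SORT1, in 16 of 16. SORT1 averaged 58.9 FPKM and exceeded NTRK3 in 15 of 16 pigs, and NTRK3, at 30.2 FPKM, exceeded BDNF in 16 of 16. BDNF averaged 12.6 FPKM and was above SORCS1, with a mean of 5.58 FPKM, in 15 of 16 pigs. NGFR was last at 0.966 FPKM, below SORCS1 in 15 of 16 pigs. Among the tested entries, 95.4% had a lower mean than NTRK2, 89.8% than SORT1, 79.8% than NTRK3, 58.2% than BDNF, 36.3% than SORCS1 and 6.25% than NGFR. The spread between pigs did not follow this order, and the highest pig was 1.82 times the lowest for NTRK3, 2.48 times for BDNF, 3.23 times for NTRK2, 4.94 times for SORT1, 23.5 times for SORCS1 and 25.0 times for NGFR.

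**Figure D1:**
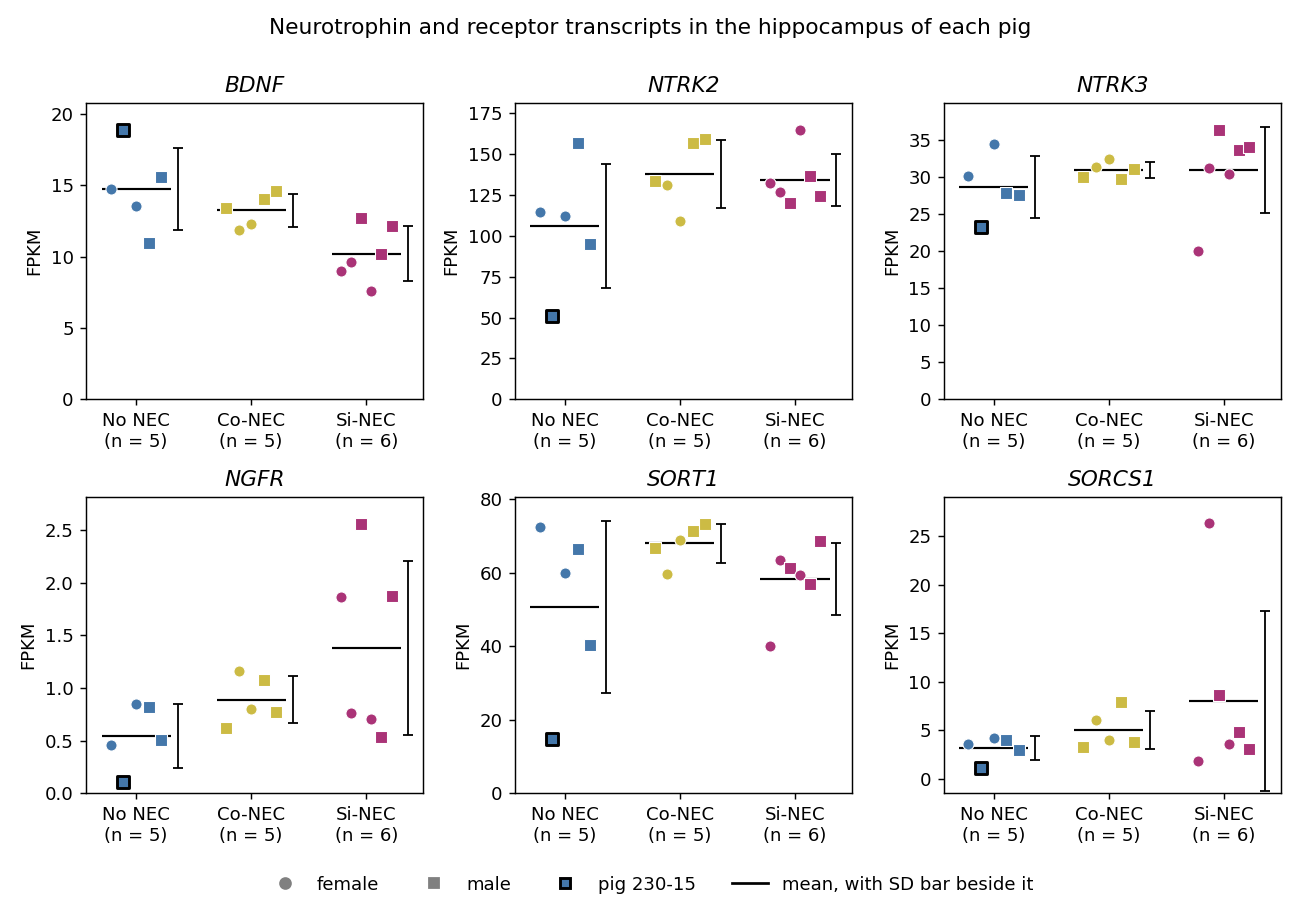
FPKM of the 6 measured transcripts in each pig of the No NEC, Co-NEC and Si-NEC groups (circles female, squares male, black outline for pig 230-15), with the group mean as a line and the SD as a bar beside it. BDNF was lower in the Si-NEC pigs (mean 10.22 FPKM) than in the No NEC pigs (14.8 FPKM), and pig 230-15 lay at the edge of the No NEC group in every panel.

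None of the 6 genes passed an adjusted p under 0.2 in any of the 3 comparisons (limma on log2(FPKM + 0.5), Benjamini-Hochberg adjustment over all tested entries). The study set the same 0.2 on q values from another program, Cuffdiff, which called SORCS1 for Si-NEC against No NEC. The tests differ, so the calls given here are not those of the study. Over all entries the limma threshold called 0.00736% when Si-NEC was set against No NEC, 0.00736% when Co-NEC was, and 0.0147% between the NEC groups. At an unadjusted limma p under 0.05, 2 of 6 genes were called for Si-NEC against No NEC (BDNF lower, NGFR higher), beside 2.61% of all entries. For Co-NEC against No NEC the count was 0 of 6, beside 3.44%, and for Si-NEC against Co-NEC it was 1 of 6 (BDNF lower), beside 5.64%. The ranges of the groups overlapped for every gene in every comparison. The share of all entries whose full groups do not overlap was not computed, so this overlap is given as a description. The median difference over the 6 genes was 0.39 on the log2 scale for Si-NEC against No NEC and 0.45 for Co-NEC against No NEC, where the median of all entries was 0.015 and 0.011, and -0.028 for Si-NEC against Co-NEC, where it was 4.82e-05. Without pig 230-15 the medians over the 6 genes were 0.10 and 0.21, where those of all entries were 0.035 and 0.029. The first 2 comparisons share the No NEC pigs, in which 230-15 was low for 4 genes, and the first and last share the Si-NEC pigs.

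**Figure D2:**
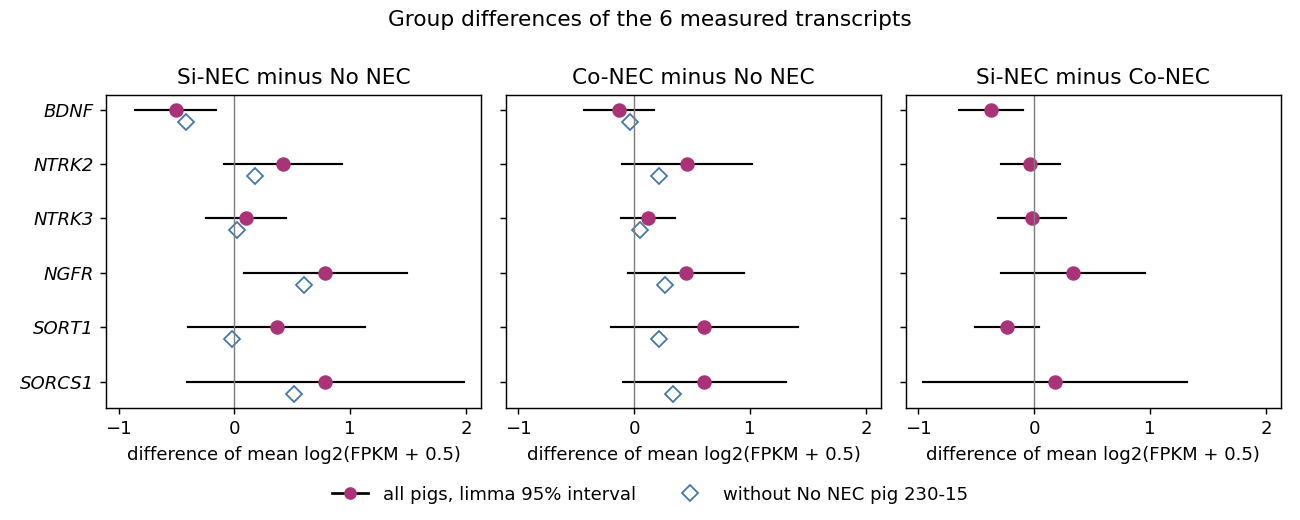
Differences of mean log2(FPKM + 0.5) for the 6 transcripts in the 3 comparisons, with the limma 95% interval, and the same difference without No NEC pig 230-15 (open diamonds). The intervals of BDNF lay below 0 for Si-NEC against both other groups, while those of NTRK2, NTRK3, SORT1 and SORCS1 included 0 in every panel.

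BDNF, the ligand, was lower in Si-NEC pigs than in either other group, with an unadjusted p under 0.05 in both comparisons that did not pass the adjustment over all entries. The No NEC pigs had 14.8 (228-15), 18.9 (230-15), 13.6 (253-15), 10.95 (540-14) and 15.6 FPKM (550-14), a mean of 14.8 ± 2.90 FPKM (SD, n = 5). The Co-NEC pigs had 13.4 (225-15), 11.9 (231-15), 12.3 (255-15), 14.1 (545-14) and 14.6 FPKM (552-14), a mean of 13.2 ± 1.152 FPKM (SD, n = 5). The Si-NEC pigs ranged from 7.62 over a median of 9.92 to 12.7 FPKM, a mean of 10.22 ± 1.92 FPKM (SD, n = 6). Of the groups, 4 of the 6 Si-NEC pigs lay below every No NEC pig and 4 below every Co-NEC pig, while the other two fell inside both ranges, and the single low No NEC pig was 540-14.

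The mean BDNF level of the Si-NEC pigs was 30.7% below that of the No NEC pigs. The difference was -0.51 on the log2(FPKM + 0.5) scale (SE 0.16, 95% interval -0.86 to -0.16), with an unadjusted limma p of 0.00856, an adjusted p of 1 and a two-sided exact permutation p of 0.0152, where 0.00216 is the smallest that 6 against 5 pigs can give. By the unadjusted limma p, BDNF was at place 54 of 13590 entries. Leaving out each pig in turn kept the difference between -0.61 (without 540-14) and -0.42 (without 230-15). Without 230-15 the exact permutation p was 0.0381, and without both 223-15 and 230-15 the difference was -0.38 with an exact permutation p of 0.0635.

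Against Co-NEC, BDNF in Si-NEC pigs differed by -0.37 on the same log2 scale (SE 0.13, 95% interval -0.65 to -0.097), with an unadjusted limma p of 0.0124, an adjusted p of 0.851 and an exact permutation p of 0.0216. Leaving out each pig kept this difference between -0.44 and -0.30. Co-NEC and No NEC pigs were not separated for BDNF, with a log2 difference of -0.13 (95% interval -0.44 to 0.17) and an exact permutation p of 0.357, and -0.041 without pig 230-15. The suffix of the pig numbers, 14 or 15, which the labels do not explain, was also followed: for Si-NEC against No NEC the log2 difference was -0.23 among the pigs of suffix 14 (2 against 2) and -0.67 among those of suffix 15 (4 against 3). For Si-NEC against Co-NEC it was -0.35 and -0.37.

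Levels of a few marker lists, picked from a longer set, are given beside these values. Of 5 neutrophil markers 2 were found, and CSF3R was at 0 in every pig, so the list came down to S100A8, with 2.21 to 25.0 FPKM in Si-NEC pigs, 0.734 to 2.31 in Co-NEC pigs and 0.764 to 3.09 in No NEC pigs. S100A8 was also on the study's own list for Si-NEC, chosen on these pigs. The 5 of 7 interneuron markers summed to 143 to 161 FPKM in Si-NEC pigs, 155 to 169 in Co-NEC pigs and 160 to 178 in No NEC pigs. These ranges overlapped between all groups, and the lowest pig was 223-15, which stood apart across genes. The hippocampal and forebrain neuron markers overlapped more broadly, at 503 to 692 FPKM in Si-NEC and 557 to 668 in No NEC. Their part in the BDNF values was not tested. In such bulk tissue, fewer cells of a type and less RNA per cell cannot be told apart.

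NTRK2, the TrkB receptor through which mature BDNF acts, had higher means in both NEC groups, and much of the gap came with 1 No NEC pig. Its No NEC values were 114 (228-15), 51.0 (230-15), 112 (253-15), 157 (540-14) and 95.2 FPKM (550-14), a mean of 106 ± 38.2 FPKM (SD, n = 5). The Co-NEC values were 133 (225-15), 131 (231-15), 109 (255-15), 157 (545-14) and 160 FPKM (552-14), a mean of 138 ± 20.9 FPKM (SD, n = 5). The Si-NEC values ran from 120 over a median of 130 to 165 FPKM, a mean of 134 ± 16.2 FPKM (SD, n = 6). Every Si-NEC pig exceeded 4 of the 5 No NEC pigs, and the exception, 540-14, was higher than all but 1 of them.

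The log2 difference of NTRK2 was 0.42 for Si-NEC against No NEC (95% interval -0.086 to 0.93, exact permutation p 0.104) and 0.45 for Co-NEC against No NEC (95% interval -0.11 to 1.02, exact permutation p 0.151). Without pig 230-15 these were 0.18 and 0.21, and without 540-14 they were 0.58 and 0.62. Si-NEC and Co-NEC pigs lay together, with a difference of -0.035 (95% interval -0.29 to 0.22). One FPKM value per gene does not separate the kinase form from the truncated forms. The 4 of 7 astrocyte markers found summed to 892 to 1528 FPKM in Si-NEC, 983 to 1095 in Co-NEC and 944 to 1140 FPKM in No NEC pigs. ALDH1L1 was at 0 in every pig. In pig 230-15 the astrocyte markers summed to 993 FPKM. Their part in the NTRK2 values was not tested.

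NTRK3, the TrkC receptor of neurotrophin-3, was the steadiest of the 6 transcripts. It averaged 28.7 ± 4.13 FPKM in No NEC (SD, n = 5, from 23.2 in 230-15 to 34.5 in 253-15), 30.9 ± 1.084 FPKM in Co-NEC (SD, n = 5, from 29.8 to 32.4) and 31.0 ± 5.80 FPKM in Si-NEC pigs (SD, n = 6, from 20.0 over a median of 32.5 to 36.4). The Si-NEC minimum was pig 223-15, and the other 5 had at least 30.4 FPKM. The log2 differences from No NEC were 0.097 in Si-NEC and 0.12 in Co-NEC, and Si-NEC differed from Co-NEC by -0.022, with 95% intervals of -0.25 to 0.44, -0.12 to 0.36 and -0.31 to 0.27. Without pig 230-15, the No NEC minimum, the first 2 were 0.025 (exact permutation p 0.938) and 0.047. Without 223-15 the first was 0.22 (exact permutation p 0.0714) and the last 0.098 (exact permutation p 0.0873).

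NGFR, the p75 receptor that many neurons carry in early life and few later, was near the lower limit of the tested range and averaged highest in Si-NEC pigs. The No NEC pigs had 0.454 (228-15), 0.102 (230-15), 0.847 (253-15), 0.817 (540-14) and 0.507 FPKM (550-14), a mean of 0.546 ± 0.305 FPKM (SD, n = 5). The Co-NEC pigs had 0.621 (225-15), 1.16 (231-15), 0.802 (255-15), 1.07 (545-14) and 0.774 FPKM (552-14), a mean of 0.887 ± 0.225 FPKM (SD, n = 5). The Si-NEC pigs ranged from 0.530 over a median of 1.31 to 2.56 FPKM, a mean of 1.38 ± 0.8286 FPKM (SD, n = 6). The Si-NEC group was split, with 223-15, 226-15 and 547-14 above every No NEC pig and 224-15, 246-15 and 539-14 inside the No NEC range.

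For Si-NEC against No NEC the log2(FPKM + 0.5) difference of NGFR was 0.78 (SE 0.32, 95% interval 0.079 to 1.49), with an unadjusted limma p of 0.0322, an adjusted p of 1 and an exact permutation p of 0.0758. Without pig 230-15 it was 0.60 with an exact permutation p of 0.129. Without both 223-15 and 230-15 it was 0.51 with an exact permutation p of 0.286. For Co-NEC against No NEC it was 0.45 (exact permutation p 0.0873), 0.26 without 230-15, and for Si-NEC against Co-NEC 0.33 (95% interval -0.28 to 0.95, exact permutation p 0.299). With levels this close to the added 0.5 FPKM, these log2 values understate the ratio of the means. Cholinergic neurons of the basal forebrain, whose axons reach the hippocampus, are a known site of p75. Of their 5 markers 4 were found, and the 3 with 1 entry summed to 4.98 to 10.1 FPKM in Si-NEC pigs. The sums were 5.20 to 7.12 FPKM in Co-NEC and 3.98 to 8.31 in No NEC pigs. Only 1 of the 3 averaged at least 0.5 FPKM, and LHX8 was at 0 in every pig. Their part in the NGFR values was not tested.

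SORT1, sortilin, which partners with p75 and also steers BDNF through the secretory pathway, had 1 No NEC pig far below all other pigs. The No NEC pigs had 72.4 (228-15), 14.8 (230-15), 59.8 (253-15), 66.3 (540-14) and 40.4 FPKM (550-14), a mean of 50.7 ± 23.4 FPKM (SD, n = 5). The Co-NEC mean was 68.0 ± 5.32 FPKM (SD, n = 5), with pigs between 59.5 and 73.2 FPKM. The Si-NEC mean was 58.2 ± 9.84 FPKM (SD, n = 6), with pigs from 39.9 (223-15) over a median of 60.2 to 68.7 FPKM. Both pigs with the highest FPKM sums were thus the lowest of their groups for SORT1.

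The log2 difference of SORT1 was 0.37 for Si-NEC against No NEC (95% interval -0.40 to 1.13) and -0.023 once 230-15 was left out. For Co-NEC against No NEC it was 0.60 (95% interval -0.20 to 1.41, exact permutation p 0.143) and 0.21 without 230-15. For Si-NEC against Co-NEC it was -0.24 (95% interval -0.51 to 0.038, exact permutation p 0.0628) and -0.13 without 223-15.

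SORCS1, the second sortilin relative of the set, stood on the study's own list of genes differing between Si-NEC and No NEC, a list chosen on these same pigs and so no independent evidence of its direction. The No NEC pigs had 3.61 (228-15), 1.12 (230-15), 4.22 (253-15), 4.001 (540-14) and 2.98 FPKM (550-14), a mean of 3.19 ± 1.25 FPKM (SD, n = 5). The Co-NEC pigs had 3.28 (225-15), 6.09 (231-15), 3.98 (255-15), 7.92 (545-14) and 3.74 FPKM (552-14), a mean of 5.00 ± 1.96 FPKM (SD, n = 5). The Si-NEC pigs had 1.84 (223-15), 26.4 (224-15), 8.64 (226-15), 3.61 (246-15), 4.78 (539-14) and 3.06 FPKM (547-14), a mean of 8.06 ± 9.29 FPKM (SD, n = 6). Pig 224-15 alone held more SORCS1 than the other 5 Si-NEC pigs put together, and the median of the group was 4.19 FPKM.

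For Si-NEC against No NEC the log2 difference of SORCS1 was 0.78 (SE 0.55, 95% interval -0.41 to 1.98), with an exact permutation p of 0.240, 0.51 without 230-15 and 0.35 without 224-15. For Co-NEC against No NEC it was 0.60 (exact permutation p 0.151), and 0.33 without 230-15. For Si-NEC against Co-NEC it was 0.18 with 224-15 and -0.25 without it.

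Female and male pigs were compared with group held constant. BDNF was lower in female pigs, 11.3 ± 2.58 FPKM (SD, n = 7) against 13.6 ± 2.62 FPKM (SD, n = 9), a log2 difference of -0.23 (SE 0.11) with an unadjusted limma p of 0.0445 and an adjusted p of 0.9999. This was the only 1 of 6 genes with an unadjusted p under 0.05, beside 3.25% of all entries, and 0 of 6 passed an adjusted p under 0.2, beside 0.0515%. The order of the 3 groups in mean BDNF was the same in both sexes: 14.2, 12.1 and 8.76 FPKM in female No NEC, Co-NEC and Si-NEC pigs and 15.1, 14.0 and 11.7 FPKM in male ones. In female pigs the 3 Si-NEC values, at most 9.66 FPKM, lay below both Co-NEC values (11.9 and 12.3) and both No NEC values (13.6 and 14.8), where 15.0% and 22.0% of all tested entries had no overlap between the same pigs. In male pigs the Si-NEC values, 10.18 to 12.7 FPKM, lay below the Co-NEC values (13.4 to 14.6), where 28.0% of entries had no overlap, but overlapped the No NEC values (10.95 to 18.9). The difference between the sexes in the Si-NEC against No NEC effect on BDNF was -0.33 on the log2 scale, with a limma interaction p of 0.291.

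For both Trk receptors 1 group effect differed between the sexes at an unadjusted limma interaction p under 0.05, and neither passed the adjustment. The share of all entries with a limma interaction p under 0.05 was not computed. For NTRK3 the male pigs were ordered without overlap, 23.2 to 27.9 FPKM in No NEC, 29.8 to 31.1 in Co-NEC and 33.7 to 36.4 in Si-NEC, whereas the female Si-NEC pigs (20.0 to 31.3 FPKM) overlapped the female No NEC pigs (30.2 and 34.5). Among all tested entries, 0.383% were ordered in this way or its reverse in the male pigs, and for a single pair of male groups 16.1% to 28.0% did not overlap. The Si-NEC against No NEC effect on NTRK3 was 0.40 in male and -0.27 in female pigs on the log2 scale, a difference of -0.67 with an unadjusted limma p of 0.0326 and an adjusted p of 0.439. For NTRK2 the Si-NEC against Co-NEC effect was -0.24 in male and 0.23 in female pigs, a difference of 0.47 with an unadjusted limma p of 0.0462 and an adjusted p of 0.487. The No NEC male group includes 230-15 and the female Si-NEC group includes 223-15, so the NTRK3 contrast draws on both pigs that stood apart and the NTRK2 contrast on 223-15.

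**Figure D3:**
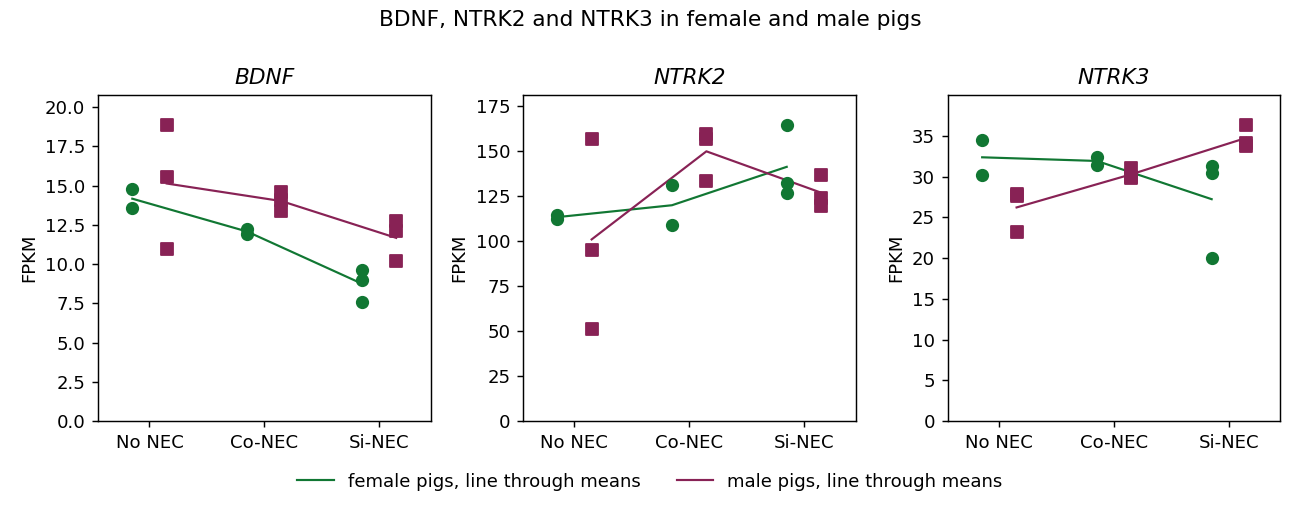
FPKM of BDNF, NTRK2 and NTRK3 in each female (circles) and male (squares) pig by group, with lines through the means of each sex. BDNF was lowest in Si-NEC in both sexes (means of 8.76 FPKM in female and 11.7 FPKM in male pigs), while the lines of NTRK3 crossed.

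Across all 16 pigs, 5 pairs of a ligand and a receptor, or of partner receptors, were compared on log2(FPKM + 0.5). BDNF and NTRK2 gave Pearson r = -0.631 (permutation p 0.0101, 0.0505 adjusted over the 5 pairs) and Spearman rho = -0.497 (permutation p 0.0538, 0.269 adjusted). Leaving out 230-15 and 246-15, the 2 pigs whose BDNF lay farthest from its median, r was -0.254. Leaving out both ends of the BDNF range also narrows it, so how far the relation rested on those pigs cannot be told from this value alone. With group means removed r was -0.648, and without 223-15 and 230-15 it was -0.459. The other 4 pairs were BDNF with NGFR (r = -0.388, rho = -0.377), BDNF with SORT1 (r = -0.355, rho = 0.224), NGFR with SORT1 (r = 0.443, rho = 0.153) and NTRK2 with NTRK3 (r = 0.317, rho = -0.0794). Their permutation p values ran from 0.108 upward for r and from 0.152 upward for rho, and were 0.198 and at least 0.379 after adjustment.

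**Figure D4:**
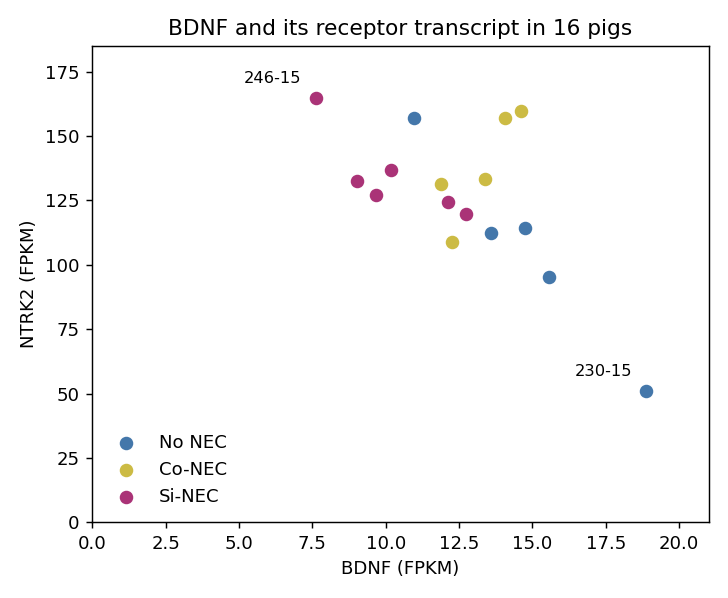
NTRK2 against BDNF, both in FPKM, for each of the 16 pigs coloured by group. The slope was negative, with pigs 230-15 and 246-15 at the ends of the BDNF range. Taken on log2(FPKM + 0.5), r was -0.631 with all pigs and -0.254 without these 2 pigs.

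The transcripts whose log2(FPKM + 0.5) followed each gene most closely over the 16 pigs were looked up among 8311 named entries, as a description. BDNF was closest to PADI2 (r = 0.780), DUSP4, a MAP kinase phosphatase (r = 0.778), and CEP89 (r = 0.776), and these were 0.756, 0.691 and 0.672 without pigs 223-15 and 230-15. NTRK2 was closest to BROX (r = 0.921), KANK1 (r = 0.912) and POLK (r = 0.909), NTRK3 to HECTD4 (r = 0.930), the presynaptic scaffold gene BSN (r = 0.930) and SLC35E2B (r = 0.926), and SORT1 to the spliceosome helicase gene SNRNP200 (r = 0.978), WDR7 (r = 0.978) and GIGYF2 (r = 0.977). Without the same 2 pigs the first of each was 0.708, 0.675 and 0.853. NGFR had the loosest neighbours, JAZF1 (r = 0.715), DPYD (r = 0.699) and the purine receptor gene P2RX7 (r = 0.692). For NGFR these were 0.513, 0.618 and 0.405 without pigs 223-15 and 230-15. SORCS1 was closest to GIT2 (r = 0.867), CHD2 (r = 0.864) and EZH1 (r = 0.834), and for GIT2 r was 0.774 without 224-15.

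Other genes of the pathway were taken from a list of 97, of which 69 were found and 62 were tested. None passed an adjusted limma p under 0.2 in any comparison. At an unadjusted limma p under 0.05, the count was 1 of 62 for Si-NEC against No NEC (0 higher, 1 lower), 3 of 62 for Co-NEC against No NEC (2 higher, 1 lower) and 7 of 62 for Si-NEC against Co-NEC (2 higher, 5 lower). These are 1.61%, 4.84% and 11.3% of the genes, beside the 2.61%, 3.44% and 5.64% of all entries. The median difference of the 62 was 0.020, 0.0064 and -0.0057 on the log2 scale.

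Among the nearest relatives, SORCS3, a further sortilin relative, had, like BDNF, its lowest mean in the Si-NEC group. It had 7.44, 5.77, 5.66, 6.11 and 6.52 FPKM in the No NEC pigs (228-15, 230-15, 253-15, 540-14 and 550-14), a mean of 6.30 ± 0.719 FPKM (SD, n = 5), and 4.13 to 5.78 FPKM in the Si-NEC pigs, a mean of 5.02 ± 0.558 FPKM (SD, n = 6). The Co-NEC mean was 5.95 ± 0.520 FPKM (SD, n = 5). The log2 difference was -0.30 for Si-NEC against No NEC (limma p 0.0221, adjusted p 1, exact permutation p 0.00866) and -0.23 for Si-NEC against Co-NEC (limma p 0.0421, adjusted p 0.867, exact permutation p 0.0173). SORL1, a more abundant sortilin relative, averaged 20.52 ± 7.89, 26.4 ± 0.739 and 23.8 ± 6.26 FPKM (SD) in the 5 No NEC, 5 Co-NEC and 6 Si-NEC pigs, and its lowest pigs were again 230-15 (7.93 FPKM) and 223-15 (11.8 FPKM).

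NTF4, a second TrkB ligand, averaged 1.26 FPKM over all pigs, and neither GDNF nor SORCS2 was among the rows found. Of the GDNF family receptors, GFRA2 averaged 4.57 FPKM and the shared kinase RET 3.76 FPKM. For Si-NEC against No NEC their log2 differences were 0.13 (NTF4), -0.094 (GFRA2) and 0.13 (RET), each with an adjusted limma p of 1. Without pig 230-15 they were 0.29, -0.13 and 0.061.

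Among 11 tested genes for cleavage of the precursors, Si-NEC means were above No NEC means for 6 and below them for 5, and 0 of 11 had an unadjusted limma p under 0.05. Their smallest p values were at ADAM10, a membrane sheddase (26.5 against 21.8 FPKM, log2 difference 0.28), PCSK7 (4.82 against 5.68 FPKM, -0.23) and PCSK5 (4.56 against 3.28 FPKM, 0.44), both of the latter proprotein convertases. Without pig 230-15 the difference of PCSK5 was 0.23. ADAM10 was 27.8 FPKM in Co-NEC, a log2 difference of 0.36 to No NEC (limma p 0.0480, adjusted p 0.812). All 5 tested partners of p75 had lower means in Si-NEC and in Co-NEC than in No NEC, with median differences of -0.079 and -0.20, and 0 of 5 had an unadjusted limma p under 0.05 in either. Pig 230-15 was the highest for 4 of them (BEX1, BEX3, MAGED1 and NDN), and without it 4 of 5 were higher in Si-NEC (median 0.059) and 1 of 5 in Co-NEC (median -0.058). The 10 genes of the response to neuronal activity had median differences of -0.12, -0.094 and 0.053 in the 3 comparisons, and the first was 0.018 without 230-15.

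Genes of Trk signalling were 28 of the 62 tested, and 5 of the 28 had an unadjusted limma p under 0.05 between Si-NEC and Co-NEC, 1 higher and 4 lower, beside 5.64% of all entries. Whether this share differs from that of other genes was not tested. The higher 1 was SH2B2, an adaptor (8.50 ± 1.44 against 6.25 ± 1.30 FPKM, n = 6 and 5, log2 difference 0.42, limma p 0.0111, adjusted p 0.851). SLITRK1, a neuronal transmembrane protein of a Slit-like and Trk-like family, had 12.1 ± 1.95 against 15.3 ± 1.02 FPKM (log2 difference -0.34, limma p 0.0116, adjusted p 0.851). PIK3R1, the regulatory subunit of PI3 kinase, had 4.30 ± 1.40 against 6.27 ± 0.787 FPKM (log2 difference -0.56, limma p 0.0301, adjusted p 0.867), with 547-14 lowest at 1.76 FPKM. PTPN11, the phosphatase SHP2, had 34.6 ± 3.89 against 41.6 ± 5.47 FPKM (log2 difference -0.26, limma p 0.0337, adjusted p 0.867). The early-response gene JUNB, outside this list, had 24.6 ± 4.70 against 19.5 ± 1.93 FPKM (log2 difference 0.31, limma p 0.0302, adjusted p 0.867).

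Between Co-NEC and No NEC the smallest p values belonged to RPS6KA1, a kinase downstream of ERK, with 4.92 ± 1.11 against 6.69 ± 1.02 FPKM (log2 difference -0.42, limma p 0.0238), and CBL, a ubiquitin ligase for receptor kinases, with 4.08 ± 0.394 against 2.90 ± 0.915 FPKM (log2 difference 0.47, limma p 0.0308), both with an adjusted p of 0.812. SOS1, an exchange factor for Ras, had 9.91 FPKM in Co-NEC against 7.20 in No NEC (log2 difference 0.51, limma p 0.0665) and SH2B2 had 6.25 against 8.37 (log2 difference -0.38, limma p 0.0717). Without pig 230-15 the differences of CBL and SOS1 were 0.32 and 0.27. CBL was low in 230-15 and 223-15, at 1.64 and 2.08 FPKM, against at least 2.38 in the rest.

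**Figure D5:**
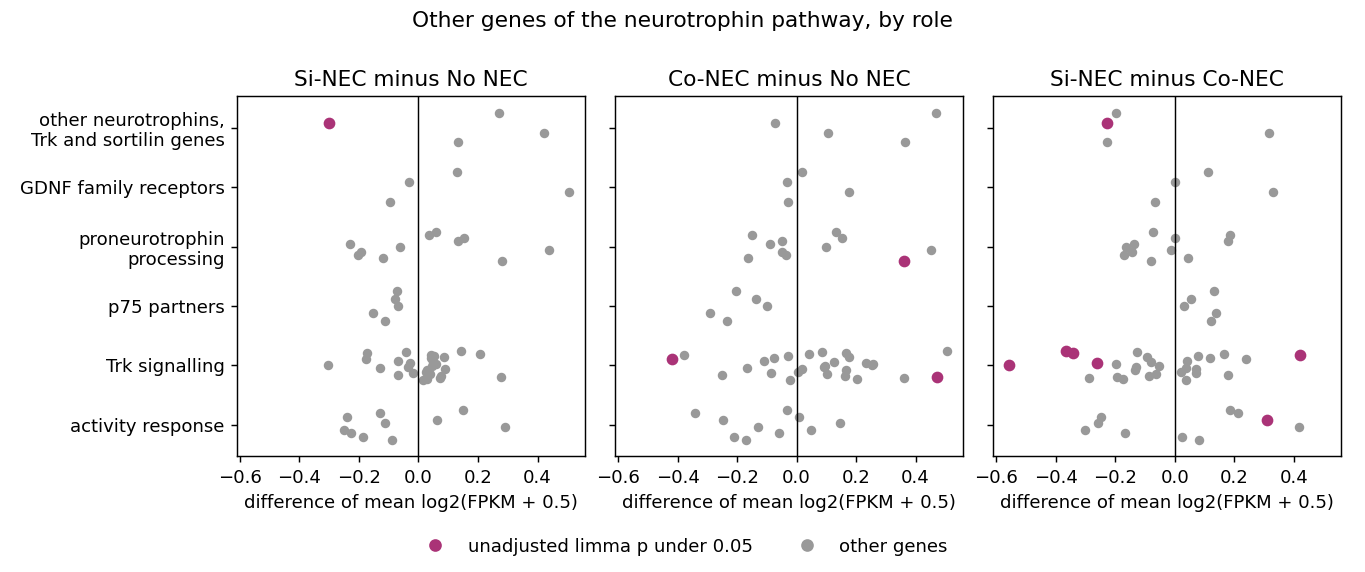
Differences of mean log2(FPKM + 0.5) for the 62 other tested pathway genes, by role, in the 3 comparisons, with genes at an unadjusted limma p under 0.05 in purple. Of 62 genes 1, 3 and 7 were so marked in the 3 panels, and points lay on both sides of 0 in most rows.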

How the data were processed

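Hippocampal RNA of 16 pigs was sequenced. Per the labels and the study's methods, the authors aligned reads to Sscrofa10.2 with TopHat2 (2.1.1) and deposited FPKM per gene from Cufflinks (2.2.1). No step of scaling between pigs is given in the sources used here, and with no read counts the depth and the error of counting are unknown. Scaling upstream could shift all genes of a pig. No gene coordinates are given, since the reference held another build.

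Of 24594 rows, 1779 identical ones were dropped. The 13590 entries averaging 0.5 FPKM or more were tested as log2(FPKM + 0.5) with limma 3.58.1 (lmFit, eBayes with trend) in R 4.3.3, each pair of groups alone, with Benjamini-Hochberg adjustment over all entries. This understates changes of low genes. Single genes also had two-sided exact permutation tests. Correlations were taken on log2(FPKM + 0.5) with 100000 permutations, and interactions of group with sex came from limma. Symbols came from a reference table (11001 gene IDs). Tables and plots were made in Python 3.11.15, and the fits were tested on simulated data. Groups and sexes came from the sample labels. The pigs came from fewer litters than there were pigs, so some were littermates, but the labels give no litter, and p-values cover the spread between these pigs.

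The genes and lists were chosen with earlier results of these data known. Besides the 8 genes, pathway genes were named by a rule: 9 relatives by level, any past the threshold, the 5 smallest limma p values per comparison, and for each gene the 3 entries of highest r. Some of the genes so named are not reported here. Marker lists were summed over markers with 1 entry. Alternatives were pseudocounts of 0.1 and 1, other filters, rescaling of pigs, 1 fit of all groups, covariates for sex and suffix, eBayes settings, array weights, single pigs left out, and pigs 223-15 and 230-15 left out together. Fits within each sex, the interaction and the lists without these pigs were added after the data were seen.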

Additional observations from a re-analysis of the deposited data

Results flagged for a closer look

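In the Si-NEC group pig 223-15 was far below the other 5 for NTRK3, at 20.0 FPKM, with a gap of 0.638 of the group's range. Pig 224-15 was far above the other 5 for SORCS1, at 26.4 FPKM, with a gap of 0.723 of the range. There were 18 combinations of gene and group examined in this way, and chance marks about 1 group in 20.

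BDNF had a log2 effect of -0.37 for Si-NEC against Co-NEC, with an exact permutation p of 0.0216 and an adjusted limma p of 0.851, which is not past the threshold. The Si-NEC against No NEC effect on NTRK3 was lower in female than in male pigs by -0.67 on the log2 scale (adjusted limma p 0.439). The Si-NEC against Co-NEC effect on NTRK2 was higher in female than in male pigs by 0.47 (adjusted limma p 0.487). Of 18 interactions computed, 2 had an unadjusted limma p under 0.05. The share of all entries at that level was not computed, so nothing is read from this count.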

How the results depend on the processing

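Over 507 alternative fits of the 6 genes, 489 kept the direction and side of the threshold, 0 lost or gained a call without turning, and 18 turned direction. In every alternative with both sexes and suffixes pooled, BDNF stayed lower in Si-NEC than in No NEC (log2 -0.61 to -0.36) and than in Co-NEC (-0.44 to -0.28), and NGFR stayed above its No NEC level in Si-NEC (0.51 to 1.18). For Si-NEC against No NEC, NTRK3 turned to -0.0044 within suffix 15 and -0.27 within female pigs, and SORT1 to -0.023 without 230-15 (-0.023 to 0.54 with single pigs left out) and -0.31 within female pigs. For Co-NEC against No NEC, BDNF turned to 0.13 within suffix 14, and within female pigs NTRK3 to -0.017 and SORT1 to -0.038. For Si-NEC against Co-NEC, NTRK2 turned to 0.015 without 545-14, 0.021 without 552-14 (-0.12 to 0.021 with single pigs left out), 0.12 within suffix 15 and 0.23 within female pigs. There NTRK3 turned to 0.12 with array weights, 0.098 without 223-15 (-0.072 to 0.098 with single pigs left out), 0.098 without 223-15 and 230-15, 0.16 within suffix 14 and 0.19 within male pigs, and SORCS1 to -0.25 without 224-15 (-0.25 to 0.45 with single pigs left out) and -0.46 within suffix 14. The NTRK3 value within male pigs was past the threshold, with an adjusted limma p of 0.181, in a fit of 3 against 3 pigs that called 2061 entries (15.2%). The cause of these turns was not tested.

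The number of entries called over the table was small and moved. For Si-NEC against No NEC it was 1, with 2 under the suffix covariate, 4 with array weights and 1 to 3 with single pigs left out. For Co-NEC against No NEC it was 1, with 4 without the filter and 1 to 2 with single pigs left out. For Si-NEC against Co-NEC it was 2, with 1 at an adjusted p of 0.05, with a pseudocount of 0.1, without the filter, in 1 fit of all groups, with either covariate and without 223-15 and 230-15, with 201 under array weights, and with 1 to 12 when single pigs were left out. Within 1 suffix or 1 sex the count was 1 to 12 in all but that fit. None of the 6 genes was called in any fit but the NTRK3 one within male pigs. NGFR was not tested at a minimum mean of 1 FPKM. No paired analysis was possible because the labels give the groups no shared replicate numbers. Depth being unknown, no detection limit could be given for NGFR.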
